A study of Mus musculus with 9 samples.

Results

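The genes described here are 47 actin-binding and adhesion genes of the non-sarcomeric actin cytoskeleton, although some of the products, such as those of Capzb, Cfl2 and Flnc, are also found in striated muscle at or near the sarcomere. They were chosen by gene symbol and role with earlier results of these data known, and the study names several of them as changed, so their selection is not independent of the data. All 47 were found among the 15149 genes counted in the hearts. All 47 also passed the filter on low counts that left 14426 genes for testing. They were read in 7 groups by the main role of the protein, namely nucleation and elongation (9 genes), binding of actin monomers (4), severing, capping and disassembly (9), bundling and crosslinking (9), non-muscle myosin motors (5), binding along the side of filaments (6), and anchoring to adhesions and membrane (5).

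RNA from whole ventricles of wild-type C57Bl6N mice was sequenced from 9 hearts. The sources differ on age, with 2 to 3 months in the age label, 3 months in the sample titles and a higher range in the paper's methods. Osmotic minipumps delivered the β-adrenoceptor agonist isoprenaline at 30 mg/kg per day (ISO, 1 female and 2 males), or isoprenaline and the α1-adrenoceptor agonist phenylephrine at 30 mg/kg per day each (ISO/PE, 1 female and 2 males), for 96 h. The 3 control hearts (Ctr, from 2 females and 1 male) were taken at day 0, so that implantation of the pump and the drug cannot be told apart in comparisons with Ctr. The comparison of ISO/PE with ISO asks what phenylephrine added to isoprenaline.

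Cells build and break down actin filaments all the time. Nucleators such as the Arp2/3 complex and formins start filaments from monomers that are held ready by profilin and thymosins, cofilins and capping proteins limit their length, crosslinkers and myosins make them into contractile bundles, and talin, vinculin and zyxin tie the bundles to adhesions. In the heart this machinery is used by fibroblasts, smooth muscle, endothelium and leukocytes and, beside the sarcomeres, by cardiomyocytes at the costamere and the intercalated disc.

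Total counts per heart were 10172248 to 14477054, of which the 47 genes took 0.629 to 0.731% in Ctr hearts, 0.80 to 0.993% with ISO and 1.161 to 1.303% with ISO/PE. Levels are CPM, counts scaled to an equal sum in every library, on normalized library sizes, and values of single hearts are given in the order female1, female2, male1 for Ctr and female2, male1, male2 for ISO and ISO/PE. Changes are log2 fold changes from 1 edgeR quasi-likelihood fit over the 9 hearts, and calls needed a Benjamini-Hochberg adjusted p under 0.05 over all genes tested and a log2 fold change beyond 0.6 in either direction. The labels do not say more about how the hearts of a group relate than sex and a number, so p values measure the spread between these hearts. The hearts had an order within their groups across these genes. Ctr female2 was lowest of its group for 33 of the 47 and ISO female2 for 39, and ISO male2 was highest for 39 and ISO/PE female2 for 34. The order of the hearts over all genes was not counted, so these numbers say nothing particular to the 47.

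Of the 47 genes, 12 were called higher in ISO and 36 in ISO/PE hearts than in Ctr hearts, among them nucleators, bundlers and proteins that bind along filaments. Of all genes tested, 10.4% were called higher and 2.99% lower in ISO, and 16.0% higher and 10.1% lower in ISO/PE hearts, while 0 of the 47 were called lower in either. Directly between ISO/PE and ISO, 5 were called higher (3.64%) and 0 lower (2.81%). At an adjusted p under 0.05 alone, 28 were higher and 2 lower in ISO (15.2% and 9.60% of all genes), 44 and 2 in ISO/PE (24.4% and 22.7%), and 23 and 0 between ISO/PE and ISO (7.46% and 6.95%). The 2 lower were Ezr and Myl12a in both comparisons with Ctr. At an unadjusted p under 0.05 the numbers lower were 2, 2 and 1, and DESeq2 and limma-voom also called 0 lower in each comparison. In bulk tissue, more cells of a type and more RNA per cell cannot be told apart.

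The median log2 fold change of the 47 was 0.45 (ISO vs. Ctr), 0.86 (ISO/PE vs. Ctr) and 0.44 (ISO/PE vs. ISO), against −0.01, −0.01 and −0.00 over all genes. All 3 treated hearts lay above all 3 Ctr hearts for 34 of the 47 under ISO (23.1% of all genes) and for 43 under ISO/PE (28.6%), and the 3 ISO/PE hearts lay above the 3 ISO hearts for 31 (17.1%). The opposite order, with no overlap, was seen for 3, 2 and 1 of them (20.4%, 27.8% and 16.3% of all genes). ISO and ISO/PE share their 3 Ctr hearts in these comparisons. Scaled to cardiomyocyte markers, the median of all genes moved to 0.46, 0.97 and 0.52 in the 3 comparisons.

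**Figure D1:**
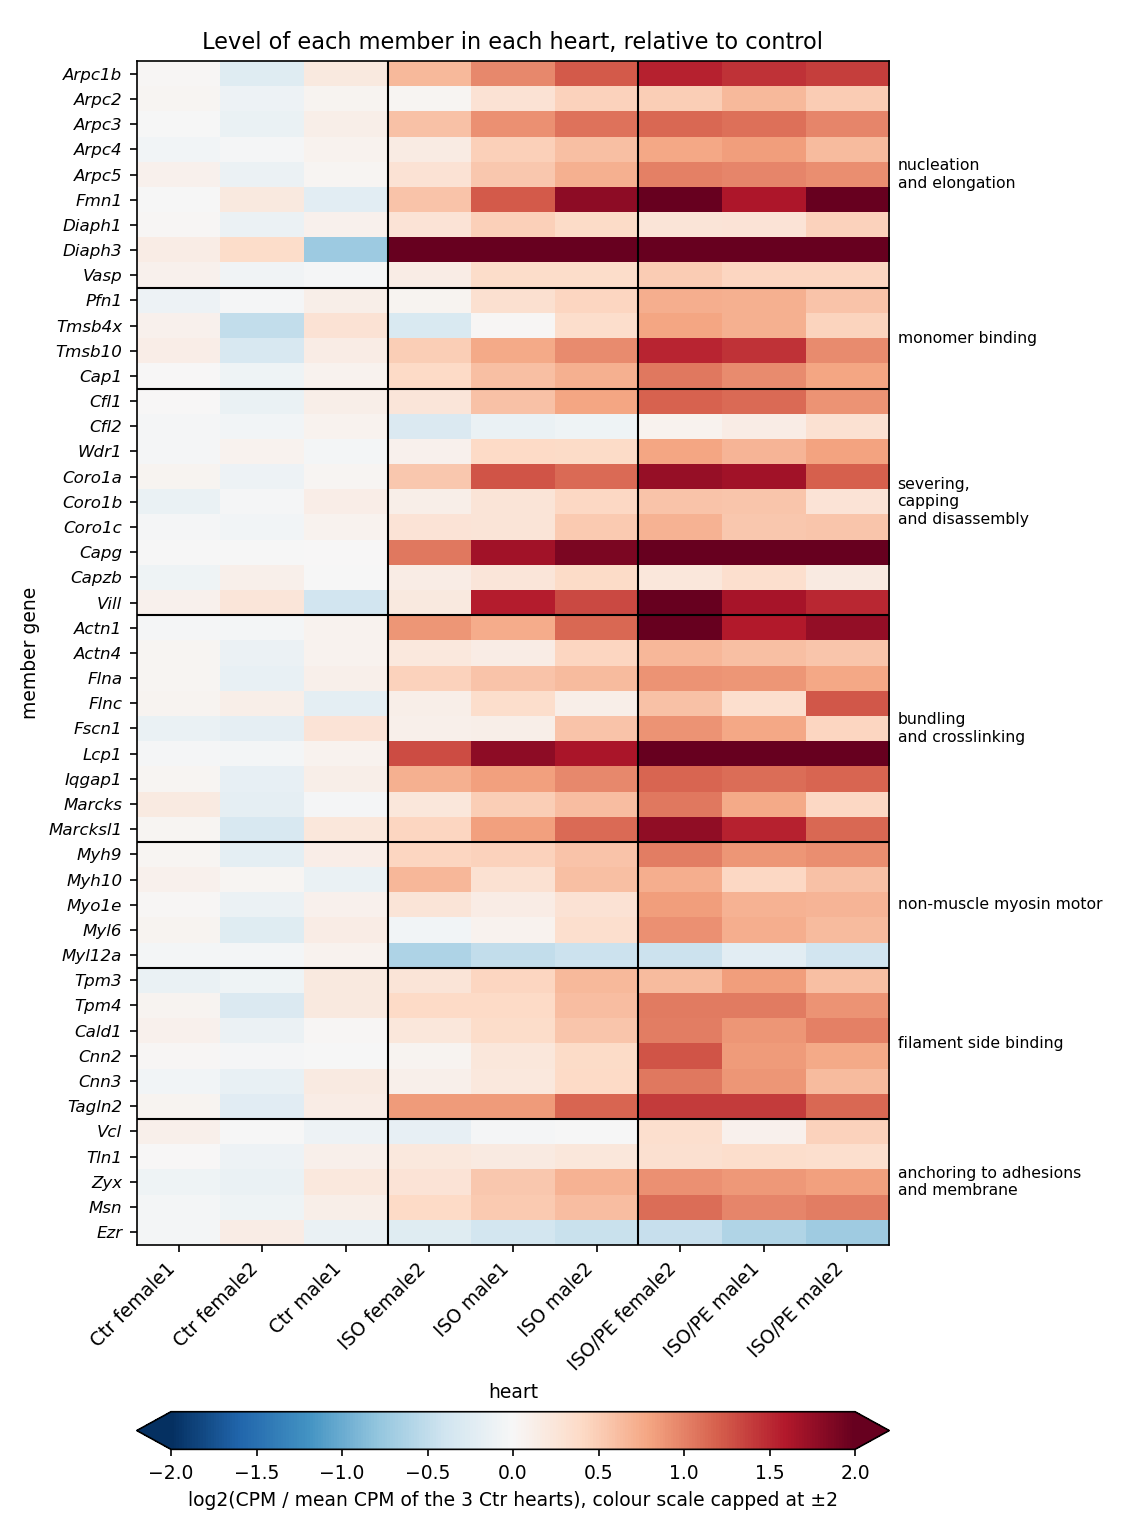
Level of each of the 47 genes (rows, by role) in each of the 9 hearts (columns), as the log2 ratio of its CPM to the mean CPM of the 3 Ctr hearts, with the colour scale capped at ±2. Most rows turn from pale in Ctr to red in ISO/PE hearts, and Ezr and Myl12a are the rows that are blue in every treated heart.

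In control hearts the order of levels per kb of transcript was led by Tmsb4x at 1091 CPM per kb, the gene of the monomer-sequestering peptide thymosin β4. Profilin (Pfn1, 380.4), the regulatory myosin light chain gene Myl12a (286) and the capping protein subunit gene Capzb (201) came next. At the other end were Vill, Fmn1 and Diaph3, at 0.276, 0.170 and 0.111 CPM per kb. The median coefficient of variation between hearts was 8.04% in Ctr hearts, 12.9% with ISO and 8.23% with ISO/PE, and it was widest for Diaph3 in Ctr (35.7%), Vill in ISO (43.1%) and Flnc in ISO/PE (34.2%).

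A promoter sequence was at hand for 44 of the 47 genes (RefSeq, build GRCm38.p6, 250 bases before to 50 after each start; Diaph1, Coro1b and Marcks had none). The CArG box, the DNA element read by serum response factor with its actin-sensing partners MRTF-A and MRTF-B, was found in 5 of the 44 (11.4%), and in 1.81% of all 27025 genes with a promoter. Those 27025 were not limited to genes tested in the hearts, as the 44 were. For every motif, a gene with several promoters counted if any of them matched. The element reads the same on both strands, so a match on one is a match on the other. The 5 are Cnn2, Myl6, Vcl, Myo1e and Arpc4, and the 250 bases before their starts are shown with the CArG box in capitals because the calls of ISO/PE against ISO include Cnn2 and Myl6. Each is written 5′ to 3′ on the strand of its gene.
Cnn2 (chr10:79988350-79988599, plus strand): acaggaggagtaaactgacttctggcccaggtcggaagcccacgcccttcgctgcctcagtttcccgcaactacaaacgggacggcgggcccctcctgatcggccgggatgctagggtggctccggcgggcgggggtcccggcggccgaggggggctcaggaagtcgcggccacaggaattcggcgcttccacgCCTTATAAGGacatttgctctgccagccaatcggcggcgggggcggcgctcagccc
Myl6 (chr10:128493010-128493259, minus strand): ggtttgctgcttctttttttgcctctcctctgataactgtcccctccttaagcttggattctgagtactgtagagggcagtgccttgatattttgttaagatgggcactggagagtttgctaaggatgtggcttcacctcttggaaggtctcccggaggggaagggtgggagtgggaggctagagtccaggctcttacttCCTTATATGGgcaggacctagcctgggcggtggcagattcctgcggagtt
Vcl (chr14:20929148-20929397, plus strand): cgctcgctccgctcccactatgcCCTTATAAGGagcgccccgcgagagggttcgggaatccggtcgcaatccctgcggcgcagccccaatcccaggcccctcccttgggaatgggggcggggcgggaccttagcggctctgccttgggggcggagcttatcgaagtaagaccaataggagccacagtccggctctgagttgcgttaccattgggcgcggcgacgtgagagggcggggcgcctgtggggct
Myo1e (chr9:70207100-70207349, plus strand): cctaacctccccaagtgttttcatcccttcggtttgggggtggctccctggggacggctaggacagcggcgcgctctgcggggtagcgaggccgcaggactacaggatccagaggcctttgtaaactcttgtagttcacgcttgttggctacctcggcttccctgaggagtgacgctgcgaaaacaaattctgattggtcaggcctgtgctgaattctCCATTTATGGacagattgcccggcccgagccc
Arpc4 (chr6:113377863-113378112, plus strand): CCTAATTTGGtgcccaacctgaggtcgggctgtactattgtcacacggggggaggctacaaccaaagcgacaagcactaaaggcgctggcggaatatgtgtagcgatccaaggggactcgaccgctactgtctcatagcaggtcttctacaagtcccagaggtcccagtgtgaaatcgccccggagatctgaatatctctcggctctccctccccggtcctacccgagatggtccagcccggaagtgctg
The first base of the box lay 56 bases before the start in Cnn2, 50 in Myl6, 32 in Myo1e, 227 in Vcl and 250 in Arpc4, where it opens the window. Cnn2 and Vcl hold the same 10 letters, CCTTATAAGG. For Myl6 the window belongs to 1 of the starts that the annotation lists for this gene. The log2 differences between ISO/PE and ISO of these 5 were 0.74, 0.63, 0.36, 0.51 and 0.32 in the order shown, beside a median of 0.44 over the 47. Actn1, Marcksl1 and Cnn3, the other genes called between ISO/PE and ISO, had no CArG box in their windows. A link between the box and the changes was not tested.

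2 other motifs were searched in the same windows on both strands. The AP-1 site TGANTCA was in 5 of the 44 (Actn4, Myl12a, Cald1, Zyx and Ezr, 11.4%) and in 8.97% of all genes. The TEAD site GGAATG was in 12 of the 44 (27.3%) and in 16.6% of all genes. On the gene's own strand alone it was in 5 of the 44 (11.4%) and in 8.74% of all genes. No motif overlapped another in these windows.

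Among nucleation and elongation genes, 4 of 9 were called higher under ISO and 6 of 9 under ISO/PE. Between ISO/PE and ISO edgeR called 0 (as did DESeq2 and limma-voom), with 6 at an unadjusted p under 0.05. The median was 0.52 and 0.97 against Ctr and 0.32 against ISO. Diaph3 (gene at chr14:86655367-87141224 of mm10, minus strand), a formin that is used in cell division, had 0.561, 0.657 and 0.306 CPM (Ctr), 4.55, 5.41 and 8.33 (ISO) and 11.7, 9.83 and 7.79 (ISO/PE). All treated hearts lay above all Ctr hearts, while ISO and ISO/PE hearts overlapped. Its change was 3.54 ± 0.37 (SE, adjusted p = 9.75e-05) under ISO and 4.23 ± 0.35 (SE, adjusted p = 6.44e-06) under ISO/PE, from a control level near the lower end of what was counted. Its relative Diaph1, a formin of stress fibres, had 62.3, 56.7 and 65.0 CPM (Ctr), 74.2, 85.5 and 79.9 (ISO) and 73.1, 74.0 and 84.0 (ISO/PE). Diaph1 changed by less than the fold threshold, at 0.38 (adjusted p = 0.00927) and 0.33 (adjusted p = 0.0101).

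Subunits of the Arp2/3 complex, which starts branches on existing filaments, are encoded by Arpc1b, Arpc2, Arpc3, Arpc4 and Arpc5 here. Arpc1b, the form of subunit 1 that prevails in blood cells, had 54.4, 45.2 and 61.2 CPM (Ctr), 84.0, 104 and 125 (ISO) and 156, 146 and 139.6 (ISO/PE). Hearts of the 3 groups did not overlap, and the change was 0.96 ± 0.14 (SE, adjusted p = 7.67e-04) under ISO and 1.46 ± 0.14 (SE, adjusted p = 1.68e-05) under ISO/PE. The exons of Arpc1b share 29.9% of their bases with Pdap1, and reads there cannot be told apart because counting ignored strand. Arpc3, another subunit, rose by 0.87 and 1.08. Arpc4 and Arpc5 were called under ISO/PE, at 0.75 (adjusted p = 2.09e-04) and 0.97 (adjusted p = 2.52e-05). Under ISO they had 0.43 (adjusted p = 0.0145) and 0.52 (adjusted p = 0.00384), below the fold threshold, and between ISO/PE and ISO neither was called, at 0.32 (adjusted p = 0.0667) and 0.45 (adjusted p = 0.0157). Arpc2 passed in no comparison, with 0.55 (adjusted p = 0.00154) under ISO/PE. Fmn1, a formin, rose by 1.27 (adjusted p = 0.0151) and 1.99 (adjusted p = 3.50e-04). Its call under ISO was lost without Ctr male1 (1.17 with an adjusted p of 0.0531) and without ISO male2 (0.92 with an adjusted p of 0.0628). Vasp, which protects growing ends from capping, stayed under the fold threshold, at 0.46 (adjusted p = 0.00108) under ISO/PE.

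All 4 monomer-binding genes were called higher under ISO/PE, 1 of them also under ISO. Between ISO/PE and ISO edgeR and limma-voom called 0 and DESeq2 called Tmsb4x, and all 4 had an unadjusted p under 0.05. The medians were 0.42, 0.80 and 0.49 in the 3 comparisons. Cap1, which recycles monomers from cofilin, had 116, 108 and 122 CPM (Ctr), 151, 176 and 188 (ISO) and 238, 223 and 200.2 (ISO/PE). The 3 groups did not overlap, and the change was 0.57 (adjusted p = 0.00214) under ISO, just under the fold threshold, and 0.93 ± 0.10 (SE, adjusted p = 3.13e-05) under ISO/PE. Tmsb10, a thymosin known from growing and invasive cells, had 12.3, 9.01 and 12.5 CPM (Ctr), 15.9, 19.1 and 21.7 (ISO) and 32.7, 30.6 and 21.8 (ISO/PE). Its groups did not overlap either, though ISO/PE male2 was within 1 CPM of ISO male2, with a change of 0.74 (adjusted p = 0.0138) under ISO and 1.33 ± 0.18 (SE, adjusted p = 1.51e-04) under ISO/PE. The ISO call of Tmsb10 was lost without Ctr female2 (0.58 with an adjusted p of 0.0685) and without ISO male2 (0.63 with an adjusted p of 0.0593). Tmsb4x, at a much higher level, had 768, 518 and 890.4 CPM (Ctr), 588, 739.97 and 924 (ISO) and 1254, 1183 and 993 (ISO/PE). Ctr and ISO hearts overlapped throughout (0.049, adjusted p = 0.878), and ISO/PE hearts lay above all others (0.66, adjusted p = 0.0197). That call was lost without Ctr female2 (0.45 with an adjusted p of 0.0750) and without ISO/PE female2 (0.59 with an adjusted p of 0.0630). Pfn1, which loads monomers onto growing ends, rose by 0.67 (adjusted p = 5.16e-04) under ISO/PE. Tmsb4x, Pfn1, Cfl1 and Myl6 have near-identical processed copies in the mouse genome, and how reads shared with them were counted is not given in the sources used here.

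Of the severing, capping and disassembly genes, 2 of 9 were called higher under ISO and 6 of 9 under ISO/PE, with medians of 0.36 and 0.76. Between ISO/PE and ISO edgeR and DESeq2 called 0 and limma-voom called Capg, 6 had an unadjusted p under 0.05, and the median was 0.46. Capg, a capping protein of macrophages and other motile cells, had 22.5, 22.4 and 22.8 CPM (Ctr), 46.8, 72.3 and 83.6 (ISO) and 103, 97.2 and 99.8 (ISO/PE). The 3 Ctr hearts were nearly equal, ISO female2 was lowest of the treated hearts, and the groups did not overlap. Its change was 1.58 ± 0.17 (SE, adjusted p = 1.14e-04) under ISO and 2.14 ± 0.17 (SE, adjusted p = 5.20e-06) under ISO/PE. Coro1a, the coronin of leukocytes, had 20.9, 18.8 and 20.7 CPM (Ctr), 29.3, 48.2 and 44.0 (ISO) and 67.4, 64.5 and 45.9 (ISO/PE). It rose by 1.01 (adjusted p = 0.00282) and 1.56 (adjusted p = 5.89e-05), with overlap of ISO/PE male2 with the ISO males.

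Coro1b and Coro1c are coronins of wider expression. Coro1b had 78.5, 85.0 and 94.7 CPM (Ctr), 93.4, 103 and 114 (ISO) and 128, 127 and 104 (ISO/PE), and passed in no comparison, with 0.48 (adjusted p = 0.00430) under ISO/PE. Coro1c had 64.6, 62.6 and 68.6 CPM (Ctr), 79.1, 78.1 and 93.9 (ISO) and 106, 94.7 and 96.1 (ISO/PE). It stood at the fold threshold under ISO/PE (0.60, adjusted p = 2.73e-04) and fell below it without Ctr female1 (0.59 with an adjusted p of 0.00201), Ctr female2 (0.56 with an adjusted p of 0.00246), ISO female2 (0.60 with an adjusted p of 3.44e-04), ISO male1 (0.59 with an adjusted p of 5.43e-04) or ISO/PE female2 (0.55 with an adjusted p of 0.00161). Vill, a villin-like gene with few reads, was called under ISO/PE at 1.84 (adjusted p = 0.00276).

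The cofilins sever old filaments. Cfl1, the form of most non-muscle cells, had 135, 122 and 146 CPM (Ctr), 158, 202 and 231 (ISO) and 303, 293 and 249.8 (ISO/PE). Its groups were ordered Ctr, ISO, ISO/PE with no overlap, at 0.56 (adjusted p = 0.0112) and 1.07 ± 0.14 (SE, adjusted p = 8.06e-05) vs. Ctr. Cfl2, the form of striated muscle, had 423, 413 and 449 CPM (Ctr), 351, 392 and 405 (ISO) and 449, 476 and 528 (ISO/PE). Its ISO hearts lay below the Ctr hearts and below the ISO/PE hearts, but it passed the call in no comparison. Its values were −0.16 (adjusted p = 0.234), 0.18 (adjusted p = 0.148) and, between ISO/PE and ISO, 0.34 (adjusted p = 0.0357). Scaled to cardiomyocyte markers, the value under ISO turned to 0.30, below the median of all genes under that scaling (0.46). Wdr1, the cofactor of cofilin, rose by 0.76 (adjusted p = 8.57e-05) under ISO/PE. Capzb, whose product caps filaments in non-muscle cells and at the Z-disc, stayed under the fold threshold, at 0.27 (adjusted p = 0.0605) and 0.25 (adjusted p = 0.0482).

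**Figure D2:**
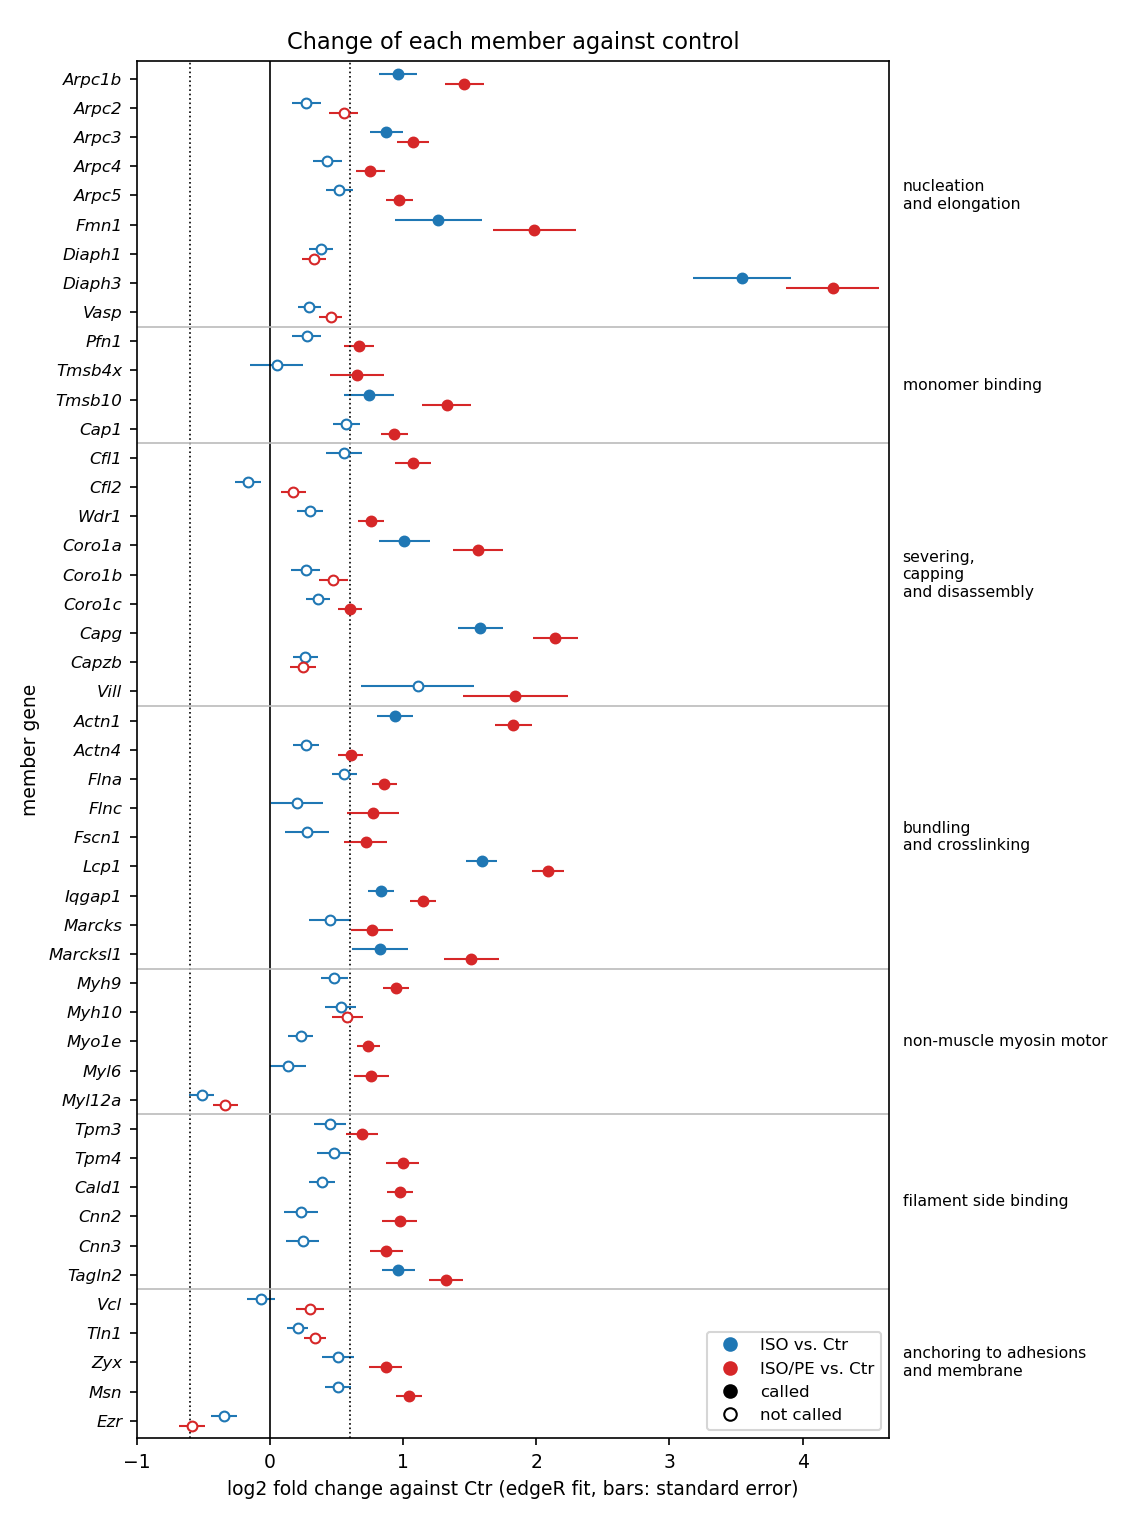
Log2 fold change against Ctr from the edgeR fit, with its standard error as a bar, for each of the 47 genes (rows, by role) under ISO (blue) and ISO/PE (red). Filled points were called, and the dotted lines mark the fold threshold of 0.6 on the log2 scale. Under ISO/PE 36 points are filled, all to the right, and under ISO 12.

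All 9 bundling and crosslinking genes were called higher under ISO/PE (median 0.86). Under ISO 4 of 9 were called (median 0.56) and between ISO/PE and ISO 2 (median 0.44), Actn1 and Marcksl1. Actn1 (chr12:80167547-80260371 of mm10, minus strand), the α-actinin of stress fibres and focal adhesions, had 65.8, 65.3 and 70.4 CPM (Ctr), 124, 113 and 149 (ISO) and 284, 202 and 228 (ISO/PE). The groups did not overlap in any comparison. Its change was 0.94 ± 0.13 (SE, adjusted p = 6.10e-04) under ISO, 1.83 ± 0.14 (SE, adjusted p = 4.39e-06) under ISO/PE and 0.89 ± 0.13 (SE, adjusted p = 0.00340) between ISO/PE and ISO, a fold of 1.91, 3.55 and 1.86. Of the 5 calls between ISO/PE and ISO, that of Actn1 was the one that held with each heart left out in turn (0.75 without ISO/PE female2 to 1.01 without ISO male2). Some 11.9% of its exon bases lie in other annotated genes. Actn4, the second non-muscle α-actinin, had 256, 231 and 261 CPM (Ctr), 289, 276 and 336 (ISO) and 395, 377 and 366 (ISO/PE). Its rise of 0.61 (adjusted p = 3.81e-04) under ISO/PE sat at the fold threshold and fell below it without Ctr female2 (0.54 with an adjusted p of 0.00301), ISO male1 (0.60 with an adjusted p of 7.81e-04) or ISO/PE female2 (0.58 with an adjusted p of 0.00160).

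Lcp1, the plastin of leukocytes, had 46.9, 46.2 and 49.9 CPM (Ctr), 118, 164 and 148 (ISO) and 219, 199.9 and 189.8 (ISO/PE). No hearts of different groups overlapped. Its change of 2.09 ± 0.12 (SE, adjusted p = 1.12e-06) under ISO/PE had the lowest adjusted p of the 47, after 1.59 ± 0.12 (SE, adjusted p = 1.92e-05) under ISO. Iqgap1, a scaffold of the cell cortex, rose by 0.83 (adjusted p = 1.66e-04) and 1.15 (adjusted p = 6.61e-06). Fscn1, which packs filaments in filopodia, was called under ISO/PE, at 0.72 (adjusted p = 0.00400). Under ISO it had 0.28 (adjusted p = 0.241), and between ISO/PE and ISO, where the hearts overlapped, 0.44 (adjusted p = 0.0929).

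Marcksl1 and Marcks encode relatives that bind actin at the membrane. Marcksl1 (chr4:129513581-129515985 of mm10, plus strand) had 12.7, 9.85 and 14.4 CPM (Ctr), 16.7, 21.7 and 27.0 (ISO) and 42.0, 35.8 and 27.4 (ISO/PE). ISO/PE hearts lay above ISO hearts, with ISO/PE male2 within 1 CPM of ISO male2. It rose by 0.82 (adjusted p = 0.0146), 1.51 (adjusted p = 1.37e-04) and, between ISO/PE and ISO, 0.69 ± 0.19 (SE, adjusted p = 0.0376). The ISO call was lost without Ctr female2 (0.67 with an adjusted p of 0.0718) or ISO male2 (0.64 with an adjusted p of 0.0642). The last call was lost without Ctr female1 (0.69 with an adjusted p of 0.0541), ISO female2 (0.53 with an adjusted p of 0.133), ISO male1 (0.69 with an adjusted p of 0.0997), ISO/PE female2 (0.54 with an adjusted p of 0.145) or ISO/PE male1 (0.68 with an adjusted p of 0.0768). Marcks had 141, 109.7 and 123 CPM (Ctr), 146, 175 and 190.3 (ISO) and 258, 210.4 and 167 (ISO/PE). It was called under ISO/PE at 0.77 (adjusted p = 0.00213), and not without ISO/PE female2 (0.60 with an adjusted p of 0.00908).

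The filamins crosslink filaments into networks and bind integrins. Flna, the widely expressed form, had 290.4, 257 and 305 CPM (Ctr), 390.02, 423 and 441 (ISO) and 532, 523 and 487 (ISO/PE), with no overlap between groups. Flna rose by 0.86 ± 0.094 (SE, adjusted p = 3.21e-05) under ISO/PE, and its 0.56 (adjusted p = 0.00151) under ISO was under the fold threshold. Flnc, the form of striated muscle, had 356, 372 and 301 CPM (Ctr), 372, 439 and 374 (ISO) and 514, 432 and 813 (ISO/PE). ISO/PE male2 stood far above the other hearts, and the call of 0.77 (adjusted p = 0.00710) under ISO/PE was lost without it (0.46 with an adjusted p of 0.0124).

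Of the 5 non-muscle myosin genes, 0 were called under ISO in edgeR (and in DESeq2 and limma-voom), where 3 had an unadjusted p under 0.05 above and 1 below. Under ISO/PE 3 were called higher, and 1 between ISO/PE and ISO. Their medians were 0.23, 0.74 and 0.46. Myh9, the heavy chain of non-muscle myosin IIA, had 262, 224 and 281 CPM (Ctr), 343, 352 and 378 (ISO) and 519, 472 and 485 (ISO/PE). The groups did not overlap, at 0.48 (adjusted p = 0.00457) and 0.94 ± 0.10 (SE, adjusted p = 2.41e-05). Myh10, the heavy chain of myosin IIB, had 57.1, 55.6 and 48.9 CPM (Ctr), 85.5, 66.3 and 81.5 (ISO) and 89.5, 71.6 and 80.6 (ISO/PE). ISO and ISO/PE hearts overlapped, both above Ctr, and its 0.53 (adjusted p = 0.00631) and 0.58 (adjusted p = 0.00164) stayed just under the fold threshold. Under ISO it passed without ISO male1 (0.62 with an adjusted p of 0.00482). Under ISO/PE it passed without Ctr female1 (0.62 with an adjusted p of 0.00479) or ISO/PE male1 (0.66 with an adjusted p of 0.00144). Myo1e, a single-headed myosin of the membrane, had 26.9, 24.4 and 27.9 CPM (Ctr), 31.5, 29.2 and 32.3 (ISO) and 47.2, 42.9 and 42.3 (ISO/PE). Its groups did not overlap, and it rose by 0.74 ± 0.090 (SE, adjusted p = 6.15e-05) under ISO/PE.

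Myl6 (chr10:128490860-128493875 of mm10, minus strand), the essential light chain of non-muscle and smooth muscle myosin, had 22.2, 18.1 and 23.8 CPM (Ctr), 20.6, 22.5 and 27.1 (ISO) and 40.1, 35.3 and 33.1 (ISO/PE). Ctr and ISO hearts overlapped (0.13, adjusted p = 0.512) and all ISO/PE hearts lay above both, by 0.76 (adjusted p = 7.07e-04) vs. Ctr and 0.63 ± 0.13 (SE, adjusted p = 0.0112) vs. ISO. The last call was lost without ISO female2 (0.55 with an adjusted p of 0.0483) or ISO/PE female2 (0.55 with an adjusted p of 0.0490), and with the longest transcript of the gene it was 0.57. Myl12a, a regulatory light chain gene, is named with Ezr and Vcl after their values were seen, and had 494, 495 and 531 CPM (Ctr), 329, 359 and 377 (ISO) and 376, 439 and 389.7 (ISO/PE). All treated hearts lay below all Ctr hearts, at −0.51 (adjusted p = 0.00233) and −0.34 (adjusted p = 0.0118), under the fold threshold in both. Some 19.0% of its exon bases lie in its neighbour and near copy Myl12b. Scaled to cardiomyocyte markers its value under ISO/PE was 0.64, below the median of all genes under that scaling (0.97).

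Genes of proteins that bind along the side of filaments were all called higher under ISO/PE (6 of 6, median 0.98), 1 of them under ISO (median 0.42) and 2 between ISO/PE and ISO (median 0.55). Tagln2, the transgelin of non-muscle cells, had 183, 151 and 195 CPM (Ctr), 319, 317 and 396 (ISO) and 466, 466 and 393 (ISO/PE). It was already higher in ISO hearts (0.96 ± 0.13, SE, adjusted p = 3.61e-04) and had 1.32 ± 0.13 (SE, adjusted p = 1.47e-05) under ISO/PE, where the treated groups overlapped. Cald1, the gene of caldesmon, had 121, 105 and 115 CPM (Ctr), 134, 146 and 167 (ISO) and 231, 211 and 229.8 (ISO/PE). No hearts of different groups overlapped, and it rose by 0.98 ± 0.098 (SE, adjusted p = 1.85e-05) under ISO/PE. Its 0.59 (adjusted p = 0.00488) against ISO stayed just under the fold threshold.

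Calponins hold back myosin on filaments. Cnn2 (chr10:79988584-79996062 of mm10, plus strand) had 91.6, 89.3 and 90.1 CPM (Ctr), 93.9, 106 and 118 (ISO) and 216, 163 and 153 (ISO/PE). The ISO hearts lay just above the Ctr hearts (0.23, adjusted p = 0.219), and every ISO/PE heart was above both. Cnn2 rose by 0.97 ± 0.13 (SE, adjusted p = 1.10e-04) vs. Ctr and 0.74 ± 0.13 (SE, adjusted p = 0.00572) vs. ISO. Cnn3 (chr3:121426497-121458207 of mm10, plus strand) had 51.4, 48.1 and 60.4 CPM (Ctr), 57.3, 62.0 and 70.2 (ISO) and 111, 98.5 and 82.9 (ISO/PE). It rose by 0.87 (adjusted p = 1.83e-04) vs. Ctr and 0.63 ± 0.12 (SE, adjusted p = 0.00877) vs. ISO, with 0.25 (adjusted p = 0.176) for ISO vs. Ctr. Without ISO/PE female2, the highest heart for both, the differences from ISO were below the fold threshold (Cnn2 0.58 with an adjusted p of 0.0168, Cnn3 0.52 with an adjusted p of 0.0387), as was that of Cnn3 without ISO female2 (0.56 with an adjusted p of 0.0394). Exons of Cnn3 share 16.2% of their bases with another annotated gene.

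Both tropomyosin genes of the 47 give short, non-sarcomeric forms in most cells. Tpm4 had 181, 142 and 198 CPM (Ctr), 229, 229 and 267 (ISO) and 358, 357 and 323 (ISO/PE), and the groups did not overlap. Tpm3 had 32.1, 33.0 and 40.5 CPM (Ctr), 42.0, 47.3 and 55.0 (ISO) and 54.5, 62.7 and 53.2 (ISO/PE), with overlap of the treated groups. They rose under ISO/PE by 0.996 (adjusted p = 6.69e-05) and 0.69 (adjusted p = 8.08e-04).

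**Figure D3:**
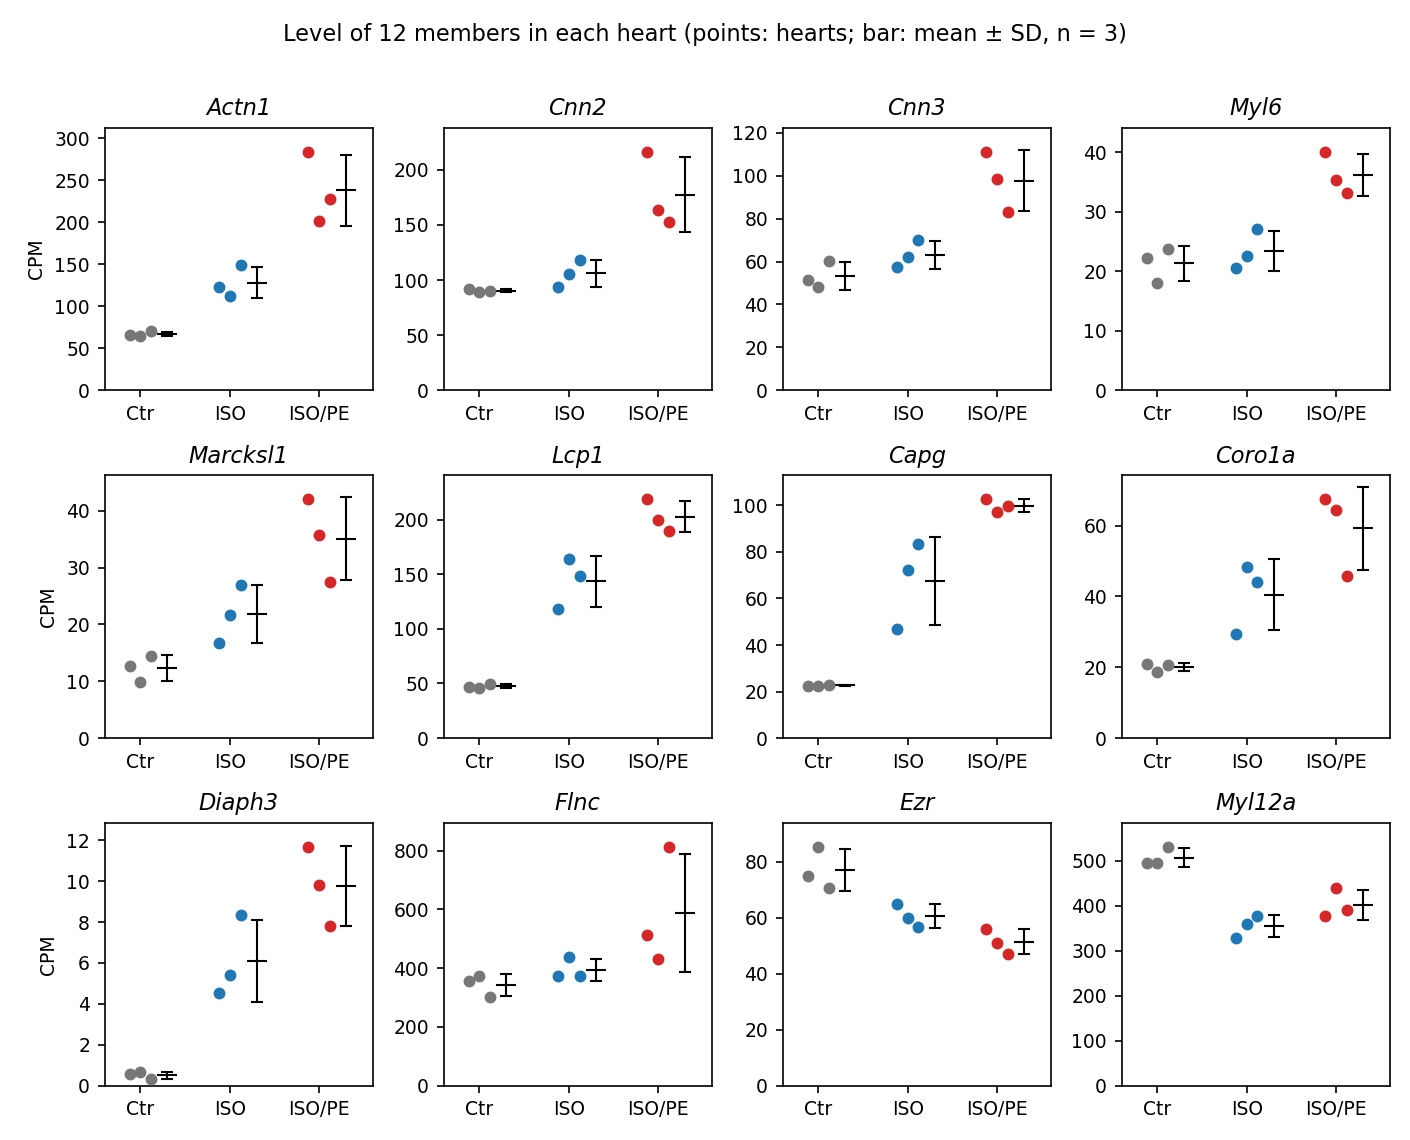
CPM of 12 of the genes in each heart (points) with the mean ± SD of 3 hearts (bars). The first row and Marcksl1 are the 5 calls of ISO/PE against ISO, Lcp1, Capg and Coro1a are forms of leukocytes, Flnc has 1 heart far above the rest at 813 CPM, and Ezr and Myl12a lie lower in treated than in control hearts.

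Anchoring genes had the lowest medians of the 7 groups against Ctr. Under ISO 0 of the 5 were called by edgeR, DESeq2 or limma-voom, with 3 at an unadjusted p under 0.05 above and 1 below, and 2 of 5 were called higher under ISO/PE, with medians of 0.21 and 0.34. Between ISO/PE and ISO the same 3 tools called 0, 3 had an unadjusted p under 0.05 above and 1 below, and the median was 0.36. Msn, the gene of moesin, which ties actin to the membrane, had 407, 393 and 454 CPM (Ctr), 548, 599.99 and 638 (ISO) and 909, 826 and 853 (ISO/PE). The 3 groups did not overlap, at 0.51 (adjusted p = 0.00295) and 1.05 ± 0.097 (SE, adjusted p = 1.16e-05). Zyx, the gene of zyxin, which is drawn to strained stress fibres, had 172, 167 and 211 CPM (Ctr), 222, 265 and 296 (ISO) and 345, 335 and 323 (ISO/PE), also with no overlap. Zyx rose by 0.87 ± 0.12 (SE, adjusted p = 1.61e-04) under ISO/PE. Tln1, which couples integrins to actin, stayed under the fold threshold at 0.34 (adjusted p = 0.00570).

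Vcl, the gene of vinculin, had 219.6, 203 and 191 CPM (Ctr), 183, 200.4 and 203 (ISO) and 258, 217 and 280.5 (ISO/PE). Its ISO/PE hearts lay above the ISO hearts (0.36, adjusted p = 0.0384), Ctr and ISO/PE hearts overlapped (0.30, adjusted p = 0.0335), and 39.7% of its exon bases lie in Ap3m1. Ezr, the gene of ezrin, a relative of moesin, had 75.1, 85.4 and 70.6 CPM (Ctr), 65.1, 60.02 and 56.8 (ISO) and 56.2, 51.0 and 47.1 (ISO/PE). Every treated heart was below every Ctr heart, and every ISO/PE heart below every ISO heart. Its −0.34 (adjusted p = 0.0232) under ISO and −0.58 ± 0.097 (SE, adjusted p = 5.46e-04) under ISO/PE stayed just inside the fold threshold, which the latter passed without Ctr female1 (−0.60 with an adjusted p of 0.00226), Ctr male1 (−0.64 with an adjusted p of 8.95e-04) or ISO/PE female2 (−0.65 with an adjusted p of 9.63e-04). Scaled to cardiomyocyte markers, the value of Ezr was 0.12 under ISO and 0.42 under ISO/PE, and that of Vcl under ISO 0.40 in place of −0.065. That scaling moved the median of all genes to 0.46 under ISO and 0.97 under ISO/PE, and these values lay below it.

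A ratio of 2 genes within a heart does not depend on how libraries are scaled, so 11 pairs of related genes were compared as ratios of counts per kb, in 33 exact permutation tests (2-sided). With 3 against 3 hearts the lowest p such a test can give is 0.10, and the lowest adjusted p over the 33 was 0.194, so none passed 0.05 and the ratios stand as a description. Actn1 to Actn4 was 0.267, 0.293 and 0.279 (Ctr), 0.443, 0.422 and 0.460 (ISO) and 0.746, 0.557 and 0.646 (ISO/PE). The 3 groups did not overlap, and the log2 ratio was higher by 0.66 under ISO, 1.21 under ISO/PE and 0.55 between them (exact p = 0.10 each). Cfl1 to Cfl2 was 0.791, 0.737 and 0.807 (Ctr), 1.12, 1.29 and 1.42 (ISO) and 1.68, 1.53 and 1.18 (ISO/PE). In Ctr hearts the muscle form was the higher one per kb, and in every treated heart the non-muscle form was, with log2 differences of 0.71 and 0.90 (exact p = 0.10 each). This crossing rests on the transcript lengths used (1178 bases for Cfl1, 2932 for Cfl2), as Cfl2 had the higher CPM in every heart.

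Marcksl1 to Marcks was 0.236, 0.235 and 0.306 (Ctr), 0.300, 0.325 and 0.371 (ISO) and 0.426, 0.445 and 0.430 (ISO/PE). The ISO/PE hearts lay close together and above all others, by 0.75 vs. Ctr and 0.39 vs. ISO (exact p = 0.10 each). Myh9 to Myh10 and Tpm4 to Tpm3 were also higher in all ISO/PE hearts than in all others, by 0.41 and 0.27 vs. ISO (exact p = 0.10 each). Coro1a to Coro1b was 0.297, 0.247 and 0.244 (Ctr), 0.351, 0.521 and 0.431 (ISO) and 0.589, 0.568 and 0.492 (ISO/PE), and the treated groups overlapped each other but not Ctr.

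Tmsb10 to Tmsb4x was 0.0172, 0.0186 and 0.0151 (Ctr), 0.0289, 0.0276 and 0.0251 (ISO) and 0.0278, 0.0277 and 0.0234 (ISO/PE). It was higher in treated than in control hearts by 0.69 and 0.64 and differed by −0.050 between the treatments (exact p = 0.10, 0.10 and 0.700). Diaph3 to Diaph1 was higher by 3.23 and 3.99 vs. Ctr. Cnn2 to Cnn3, Coro1c to Coro1b and Flna to Flnc overlapped between the groups in every comparison, with log2 differences from −0.22 to 0.36. For Cnn2 to Cnn3 the 3 differences were −0.022, 0.088 and 0.11.

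**Figure D4:**
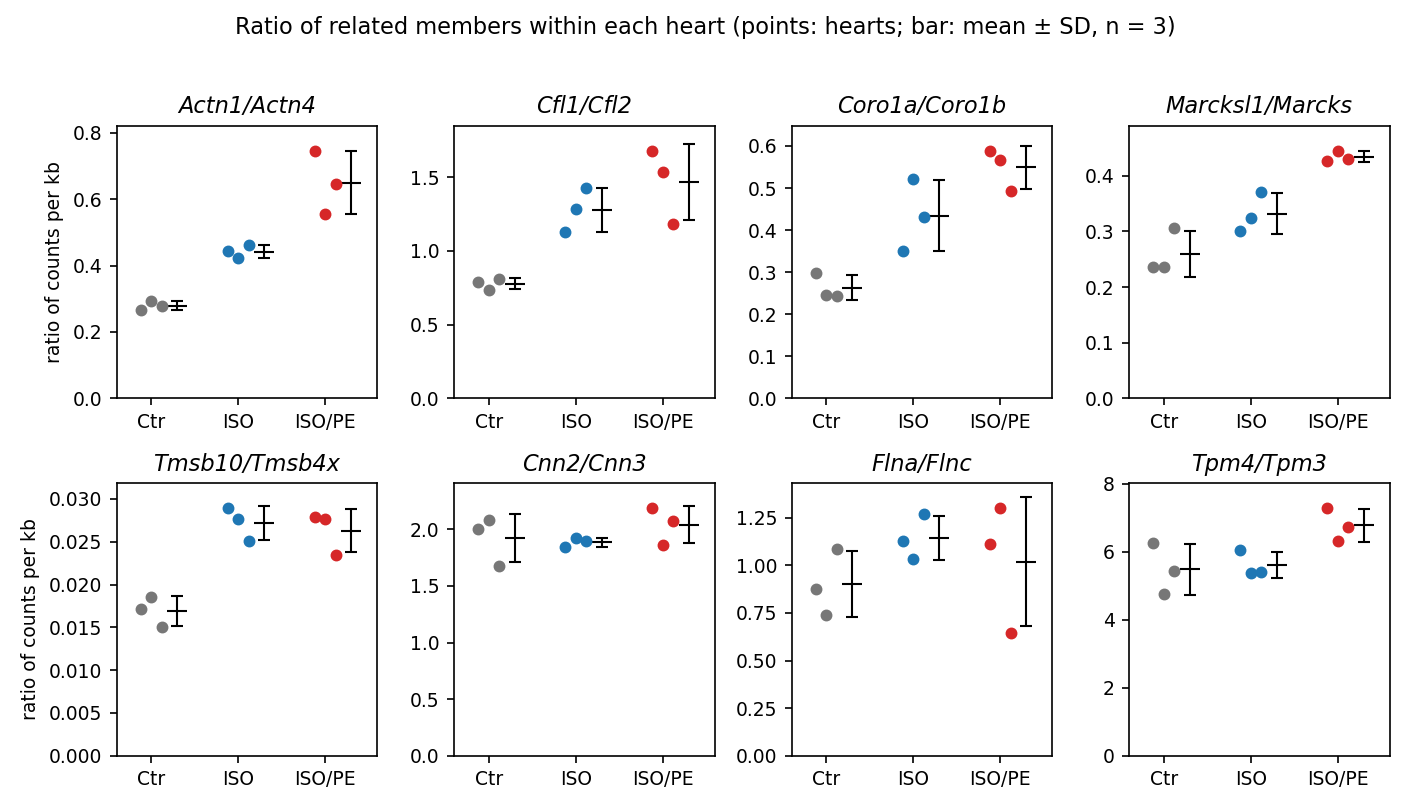
Ratio of counts per kb of related genes within each heart (points) for 8 of the 11 pairs, with the mean ± SD of 3 hearts (bars). Actn1/Actn4 separates all 3 groups, Cfl1/Cfl2 crosses 1 per kb (not in CPM) between control and treated hearts, and Cnn2/Cnn3 and Flna/Flnc overlap.

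The mean summed levels of macrophage and monocyte and of activated fibroblast markers rose from Ctr to ISO to ISO/PE, as most of these genes did. Those of other cell types did not all do so. Of 20 macrophage and monocyte markers 17 were called higher under ISO, 19 under ISO/PE and 2 between ISO/PE and ISO, and their summed level was 875 to 1092 CPM in Ctr hearts, 1781 to 2913 with ISO and 2886 to 3889 with ISO/PE. ISO female2 had the lowest sum of the treated hearts and ISO/PE female2 the highest. Of 11 markers of activated fibroblasts 8 and 10 were called higher, and 9 between ISO/PE and ISO, with sums of 371 to 424, 1565 to 3493 and 6436 to 8276 CPM. Of 14 cardiomyocyte markers 2 and 7 were called lower than in Ctr, and 2 lower in ISO/PE than in ISO, with sums of 68249 to 75182, 47153 to 55134 and 30585 to 41155 CPM. Genes of high level weigh most in these sums, such as Myh6 with means of 14910, 11767 and 5472 CPM. The markers did not all fall, as 3 under ISO and 1 under ISO/PE had a change above 0 vs. Ctr. These were Actn2 (0.091 and 0.077) and, under ISO alone, Ryr2 (0.43, then −0.13) and Cacna1c (0.37, then −0.21). The paper names Ryr2 and Ttn as unchanged vs. control. Here Ttn had −0.12 (adjusted p = 0.652) under ISO and −0.45 (adjusted p = 0.0509) under ISO/PE, where all hearts lay below all Ctr hearts. Between ISO/PE and ISO, Ryr2 had −0.55 (adjusted p = 0.0494) with overlap of the hearts, under the fold threshold. The part of these shifts in the results for the 47 genes was not tested.

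The summed level of 11 smooth muscle and pericyte markers was 2254 to 2388 CPM in Ctr hearts, 2277 to 2405 with ISO and 2370 to 2499 with ISO/PE, with Acta2, Tagln and Cnn1 called higher and Kcnj8 and Abcc9 lower under ISO/PE. Acta2, Tagln and Cnn1 were also called higher, and Abcc9 lower, in ISO/PE than in ISO. In that comparison 4 of the 11 had a change above 0. Smtn had −0.32 (adjusted p = 0.0372) and Myh11 −0.28 (adjusted p = 0.131), neither called. Acta2 is also counted among the activated fibroblast markers. Of 10 endothelial markers 0 were called by edgeR, DESeq2 or limma-voom in either direction in any comparison (in edgeR 0 higher and 3, 6 and 4 lower at an unadjusted p under 0.05), and their sums were 2261 to 2790, 2154 to 2680 and 2013 to 2135 CPM. Of 10 general fibroblast markers 6 and 4 were called higher than in Ctr and 1 (Pi16) lower in ISO/PE than in ISO, with sums of 2141 to 2626, 3369 to 3874 and 3248 to 3527 CPM. All 4 B cell markers measured were called lower under both treatments, from 7.23 to 9.28 CPM together in Ctr to 2.45 to 3.17 in ISO and 2.65 to 3.85 in ISO/PE. Neutrophil markers (4 of 8 measured) summed to 3.28 to 11.7, 6.29 to 11.5 and 12.8 to 25.3 CPM, and T and NK cell markers (6 of 11 measured) to 4.89 to 7.11, 6.67 to 9.55 and 5.74 to 9.55 CPM. No marker measured was at 0 in every heart.

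Lcp1, Coro1a, Arpc1b and Capg, which are high in leukocytes, were also read as a share of the summed macrophage and monocyte markers of the same heart, in 12 exact permutation tests (2-sided, lowest adjusted p 0.24). Lcp1 was 4.73, 5.28 and 4.56% (Ctr), 6.63, 5.80 and 5.09% (ISO) and 5.62, 5.95 and 6.58% (ISO/PE) of that sum. Arpc1b was 5.48, 5.17 and 5.60% (Ctr), 4.72, 3.67 and 4.30% (ISO) and 4.01, 4.36 and 4.84% (ISO/PE), lower in every treated than in every control heart. The log2 ratio of Lcp1 differed by 0.26 for ISO and 0.32 for ISO/PE vs. Ctr (exact p = 0.200 and 0.10), that of Arpc1b by −0.36 and −0.30 (0.10 each), that of Coro1a by −0.34 and −0.23 (0.10 and 0.200) and that of Capg by 0.22 and 0.37 (0.200 and 0.10). Between ISO/PE and ISO the 4 differences were 0.06 to 0.15. With 3 against 3 hearts none of these tests could pass, and the shares stand as a description.

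Beyond the 47, 86 further genes of the same 7 roles were read, of which 85 were tested. Of these, 12 were called higher (14.1%, 10.4% of all genes) and 2 lower (2.35%, 2.99% of all genes) under ISO. Under ISO/PE 21 were called higher (24.7%, 16.0% of all genes) and 6 lower (7.06%, 10.1% of all genes). Between ISO/PE and ISO 3 were called higher, which at 3.53% is near the 3.64% of all genes, and 0 lower (2.81% of all genes). The 3 genes are described singly and say nothing of the list. The medians were 0.17, 0.26 and 0.12. At an unadjusted p under 0.05, 9 were lower in ISO/PE than in ISO hearts. The 3 higher were Enah, an elongation factor at growing ends, with 131, 148 and 125 CPM (Ctr), 133, 153 and 151 (ISO) and 246, 224 and 301 (ISO/PE), and the smooth muscle genes Tagln and Cnn1. Ctr and ISO hearts overlapped for Enah (0.12, adjusted p = 0.508), and its difference between the treatments was 0.82 ± 0.12 (SE, adjusted p = 0.00309). Tagln, relative of Tagln2, had 75.0, 71.0 and 75.7 CPM (Ctr), 102, 117 and 137 (ISO) and 302, 249.7 and 220.3 (ISO/PE), a difference of 1.12 ± 0.13 (SE, adjusted p = 0.00167). Cnn1, the smooth muscle calponin, had 4.49, 3.47 and 3.47 CPM (Ctr), 7.81, 9.47 and 9.52 (ISO) and 54.7, 26.3 and 42.3 (ISO/PE), a difference of 2.21 ± 0.23 (SE, adjusted p = 0.00149), a fold of 4.61. Tagln and Cnn1 are also in the list of smooth muscle markers, whose summed level and other changes are given above.

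The 2 further genes of each role with the lowest p under ISO/PE were chosen by rule. Nucleation was led by cortactin (Cttn, 0.84, adjusted p = 2.20e-05) and Nckap1l, the WAVE complex subunit of blood cells (1.96, adjusted p = 5.06e-05), and monomer binding by twinfilin (Twf1, 1.04, adjusted p = 2.84e-05), the 1 gene called there. Bundling was led by drebrin (Dbn1, 2.13, adjusted p = 1.66e-06) and the plastin Pls3 (0.78, adjusted p = 3.50e-05), the motors by Myo5a (1.45, adjusted p = 8.67e-06) and the leukocyte myosin Myo1f (2.00, adjusted p = 2.97e-05), and anchoring by the tensin Tns3 (0.96, adjusted p = 1.57e-05) and the paxillin relative Tgfb1i1 (0.87, adjusted p = 3.83e-05).

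The 2 severing genes so chosen were both lower. Gelsolin (Gsn), which severs and caps filaments and is abundant in heart, had 3254, 2951 and 3068 CPM (Ctr), 2024, 1278 and 1234 (ISO) and 969, 948 and 1261 (ISO/PE). All treated hearts lay below all Ctr hearts, by −1.03 ± 0.19 (SE, adjusted p = 0.00226) under ISO and −1.54 ± 0.19 (SE, adjusted p = 6.38e-05) under ISO/PE. Scin, its close relative, had −1.37 (adjusted p = 7.31e-04) and −1.55 (adjusted p = 1.08e-04).

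Each treated group held 1 female and Ctr held 1 male. A test of whether the sexes differ in their change thus cannot tell sex apart from a single heart. The change of treatment differed between the sexes at an adjusted p under 0.05 for 0 of the 47 genes in any comparison in edgeR, with the lowest adjusted p at 0.207 between ISO/PE and ISO, where 15 of the 47 had an unadjusted p under 0.05. For ISO vs. Ctr and ISO/PE vs. Ctr 2 and 4 had. The share of all genes at that unadjusted p was not counted, so these numbers say nothing particular to the 47. Of all genes tested, 11 had an adjusted p under 0.05 between ISO/PE and ISO, and 0 in each comparison with Ctr. With sex as a covariate 13, 35 and 5 of the 47 were called higher in the 3 comparisons. Left out in turn, single hearts moved the number called between ISO/PE and ISO from 5 to 1 (Actn1) without ISO/PE female2, to 2 (Actn1 and Cnn2) without ISO female2, to 8 without ISO/PE male2 and to 14 without ISO male2. Scaled by total counts it was 10.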

How the data were processed

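Poly(A) RNA from whole ventricles was sequenced in 9 mice. Raw read counts per RefSeq transcript were deposited by the authors, who ran STAR against mm10 and counted reads on exons of either strand. For counting, analyzeRepeats.pl is named in the paper and featureCounts in the submitters' processing notes (versions not given in the sources used here). One table holds ISO and Ctr hearts. The other is named for ISO/PE vs. Ctr but holds ISO/PE and ISO hearts. No transcript sums to fewer than 21 counts within a table. The deposited tables also hold normalized counts, RPKM and the authors' own DESeq2 fold changes, p values and adjusted p values, which were not used. Transcript lengths, as deposited, served only for levels per kb and for pair ratios.

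The tables were joined on 29889 shared transcripts (ISO counts differed in 0 of 89667 values), and each of 15149 genes was read from its most counted transcript. Tests used edgeR 4.0.16 (R 4.3.3) with TMM scaling, filterByExpr and glmQLFit and glmQLFTest over all 9 hearts without covariates. The thresholds are those of the study. Standard errors (SE) are the log2 fold change over the root of its F statistic. The test was run on simulated counts drawn with the spread fitted to these hearts, which cannot check how well that spread was estimated. Alternatives were DESeq2 1.42.0, limma-voom (limma 3.58.1), scaling by total counts or by 14 cardiomyocyte markers, no filter, only 2 groups, sex as a covariate, a replicate block, the longest transcript, no fold threshold and each heart left out. Exact permutation tests used scipy 1.17.1. Exon overlaps are from GENCODE annotation of mm10 and promoters from RefSeq.

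Members, lists and tests were chosen with earlier results of these data known, and the paper names some of the genes as changed, so the lists are not independent evidence. Values of every heart were given for the 2 genes of each role with the lowest p for ISO/PE vs. Ctr, for genes called between ISO/PE and ISO or called lower, and for genes of the pairs. Of the further genes, the 2 of each list with the lowest p for ISO/PE vs. Ctr among those called, and those called between ISO/PE and ISO, were named. Other members are given by their change. Values of Ezr, Myl12a and Vcl were added after they were seen. A list of signalling genes is not reported here.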

Additional observations from a re-analysis of the deposited data

How the results depend on the processing

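The number of the 47 genes called higher (12, 36 and 5 for ISO vs. Ctr, ISO/PE vs. Ctr and ISO/PE vs. ISO) was 12, 36 and 6 in DESeq2 and 12, 35 and 6 in limma-voom. Scaled by total counts it was 15, 38 and 10, with a median of 0.97 for ISO/PE vs. Ctr. Scaled to cardiomyocyte markers it was 42, 46 and 43, with medians of 0.92, 1.84 and 0.96. The median of all genes rose too, to 0.46, 0.97 and 0.52, and 43, 45 and 44 of the 47 lay above it. All 47 had ISO/PE hearts above ISO hearts. The shares of all genes called or without overlap under this scaling were not counted, so these counts say nothing particular to the 47. The sign of some values turned there: Cfl2 (0.30), Vcl (0.40) and Ezr (0.12) for ISO vs. Ctr, Myl12a (0.64) and Ezr (0.42) for ISO/PE vs. Ctr, and Diaph1 (0.46), Capzb (0.49) and Ezr (0.30) for ISO/PE vs. ISO. Without the fold threshold 28, 44 and 23 were higher, and 2, 2 and 0 lower. With single hearts left out the numbers higher were 9 to 18, 32 to 37 and 1 to 14, the number lower for ISO/PE vs. Ctr was 0 to 1, and the median for ISO/PE vs. ISO was 0.35 to 0.50. The 18 were found without ISO female2, where Arpc5, Cap1, Cfl1, Vill, Flna and Zyx were also called for ISO vs. Ctr. Values near 0 changed sign: Tmsb4x for ISO vs. Ctr with sex as a covariate (−0.033) and with single hearts left out (−0.16 to 0.22), Diaph1 (0.0023) and Capzb (0.037) for ISO/PE vs. ISO with total counts, and Diaph1 (−0.12 to 0.0064), Capzb (−0.070 to 0.047) and Myh10 (−0.044 to 0.13) with single hearts left out. So did, with single hearts left out, the log2 ratios of Cnn2 to Cnn3 (−0.12 to 0.039 for ISO vs. Ctr, −0.0065 to 0.15 for ISO/PE vs. Ctr), Tpm4 to Tpm3 (−0.057 to 0.14) and Myh9 to Myh10 (−0.15 to 0.10) for ISO vs. Ctr, Flna to Flnc (−0.074 to 0.43 for ISO/PE vs. Ctr, −0.43 to 0.078 for ISO/PE vs. ISO), and Tmsb10 to Tmsb4x (−0.11 to 0.032) and Coro1c to Coro1b (−0.040 to 0.11) for ISO/PE vs. ISO. The ratios to leukocyte markers for ISO/PE vs. ISO were −0.038 to 0.15 for Lcp1 and −0.038 to 0.14 for Arpc1b with single hearts left out, and −0.054 (Lcp1), −0.0044 (Coro1a) and −0.050 (Arpc1b) with Ptprc alone as the marker. The TEAD site was in 5 promoters on the gene strand. The causes of these changes were not tested. With a replicate block the numbers called higher were 9, 32 and 4. The labels share only a number: deviations of same-labelled hearts correlated by −0.12 to 0.18. With 3 hearts per group, and 1 female in each treated group, small differences could not be resolved.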
